A study of Mus musculus with 6 samples.

Results

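The vanin pantetheinase genes Vnn1 and Vnn3 and the coenzyme A synthesis genes Pank1, Pank2, Pank3, Ppcs, Ppcdc and Coasy were compared in mouse lung. The 8 genes are those of 18193 on the array that carry these symbols, and every probe set that the platform annotation pairs with a single member symbol was taken, which gave 18 of 45037 probe sets. Another probe set is annotated to Ppcs together with a second gene and was not used. The genes were chosen by their known roles with the log2 differences between AKR_F1 and DBA_F1 already in view, so those differences are described here and carry no test. The first group, AKR_F1, was lung of adult female F1 mice of AKR/J and FVB/NJ parents, with 3 arrays. The other group, DBA_F1, was lung of adult female F1 mice of DBA/2J and FVB/NJ parents, also with 3 arrays. All 3 parental strains are inbred, no treatment was compared, and every animal carried FVB/NJ chromosomes beside those of its other parent. The design asked for basal differences in lung expression between the genotypes. Separate animals are not stated for the arrays, so errors and p-values measure only the spread between these samples, which may be technical.

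Coenzyme A carries acyl groups in fatty acid oxidation, lipid synthesis and the citric acid cycle. Cells make it from pantothenate, vitamin B5, which pantothenate kinases (Pank1, Pank2, Pank3) phosphorylate in the rate-controlling step. Ppcs then adds cysteine, Ppcdc removes a carboxyl group, and the bifunctional enzyme Coasy completes the molecule. Vanins act outside this chain: they are extracellular pantetheinases that split pantetheine, a breakdown product of coenzyme A, into pantothenate, which can be used again, and the aminothiol cysteamine. Vnn1 is held at the cell surface by a lipid anchor and is known as a target of the nuclear receptor PPAR alpha in mouse liver.

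All values are deposited log2 signals, 1 per probe set and array, and a difference of 1 is a doubling. Array medians lay between 5.46 and 5.49. A filter on the mean of the 6 arrays took out the dimmest 40% of probe sets (4.72 or less) and left 27022 for the test, among them 15 of the 18 member probe sets. Lung identity was clear, with signals of 14.26 to 14.34 for surfactant protein C (Sftpc) over all arrays. The 6 lung genes averaged 13.53 to 13.60 in AKR_F1 arrays and 13.40 to 13.50 in DBA_F1 arrays, without overlap. Of these 6, 5 had higher means in AKR_F1. Surfactant protein B (Sftpb) alone passed (0.32 ± 0.057 SE, limma adjusted p = 0.0371), against 1.42% of all tested genes called higher in AKR_F1. The samples differed in markers of other tissue. The 6 squamous upper airway genes averaged 4.53, 4.33 and 10.54 in AKR_F1 replicates 1 to 3, against 10.20, 10.77 and 10.07 in DBA_F1. The 4 tested skeletal muscle genes of 6 listed averaged 6.13, 5.39 and 11.34 in AKR_F1 replicates 1 to 3. In DBA_F1 replicates 1 to 3 they averaged 10.60, 11.16 and 10.62. The 6 cardiac genes averaged 9.72 to 9.94 in AKR_F1 arrays. Their averages in DBA_F1 arrays overlapped these and reached 11.34 in replicate 1. Of the squamous, skeletal muscle and cardiac genes 0 were called in limma, against 2.48% of all tested genes. An unadjusted p under 0.05 in limma was reached by 5 squamous genes and by 0 of the others, against 19.1% of all tested genes. Median differences were -4.29 for the squamous and -3.31 for the skeletal muscle genes. AKR_F1 was widely spread in both lists, so 0 calls do not show equal levels. Neither the labels nor the file names a batch. In whole tissue, fewer cells of a type and less RNA per cell cannot be told apart.

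In the fit over all tested probe sets, 3 of the 15 tested member probe sets passed an adjusted p of 0.05, against 2.62% of all tested probe sets (707 of 27022, by limma with Benjamini-Hochberg adjustment). They were both probe sets of Vnn1 and the single probe set of Vnn3, and all 3 were lower in AKR_F1, a direction in which 1.05% of all tested probe sets were called. None of the 12 tested probe sets of the 6 synthesis genes passed, and their differences ran from -0.53 to 0.30. The groups did not overlap in 6 of the 15 tested member probe sets, 4 lower and 2 higher in AKR_F1, against 23.6% of all tested probe sets. Since this contrast was known when the genes were chosen, these counts are descriptions.

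**Figure D1:**
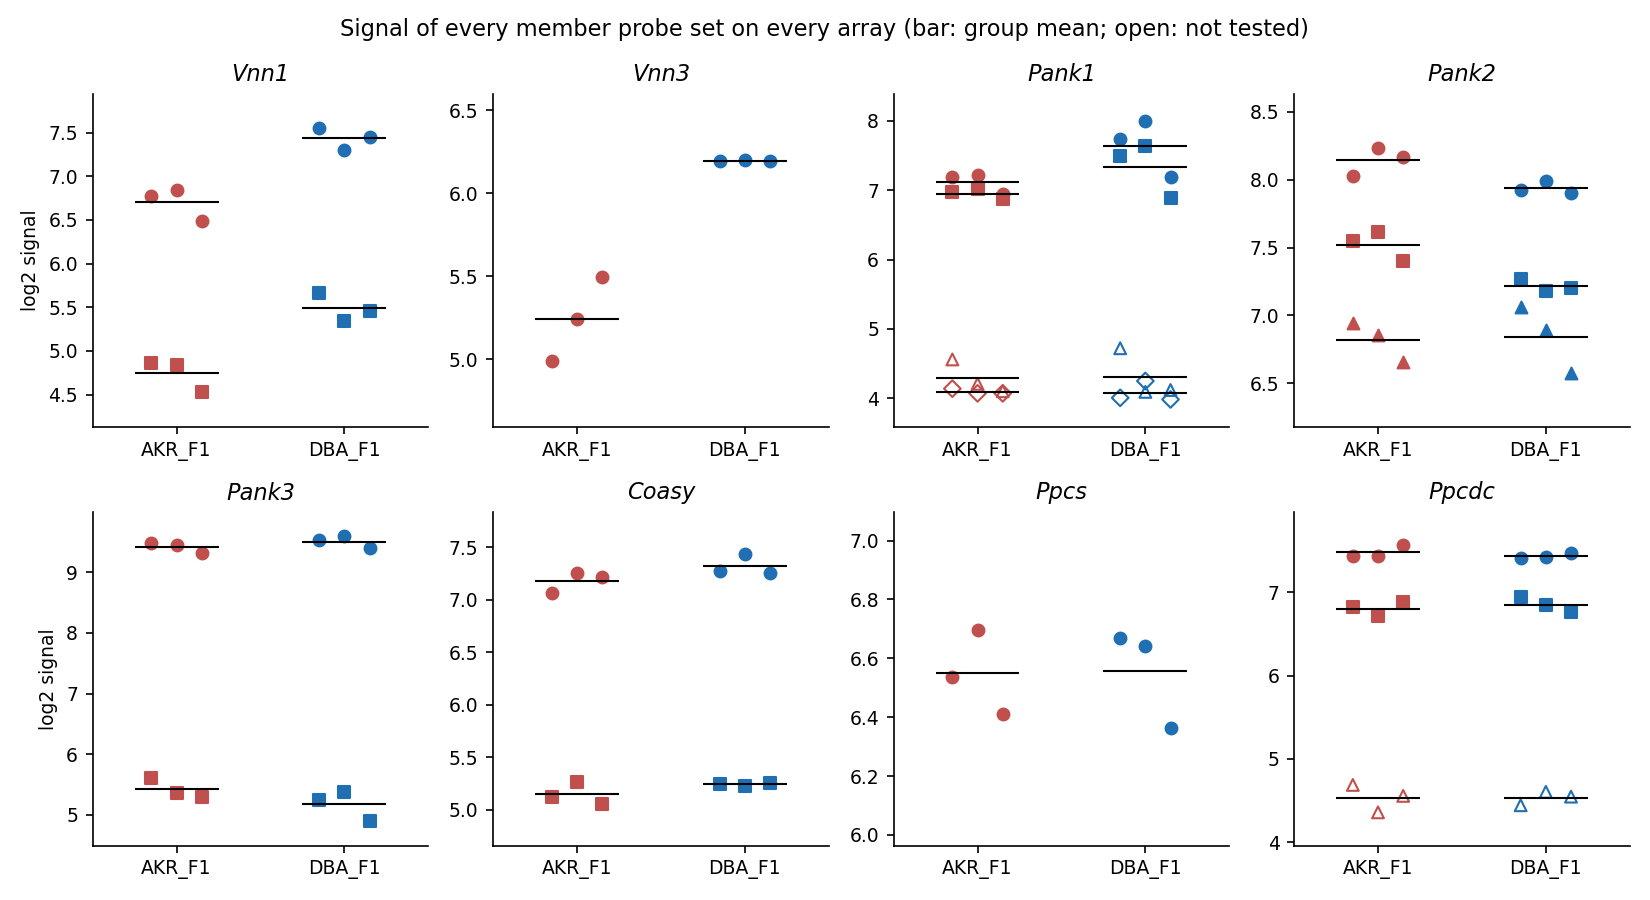
Log2 signal (vertical axis, a separate scale for each gene) of all 18 member probe sets on each array, with AKR_F1 left of DBA_F1 and replicates 1 to 3 from left to right. Each marker shape is a probe set, bars are group means of 3 arrays, and open markers were not tested. Vnn1 and Vnn3 separate the groups on every array, while the upper probe sets of Pank1 are high in DBA_F1 replicates 1 and 2 only.

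Vnn1, the membrane-anchored vanin, was lower in AKR_F1 by both of its probe sets. Probe set 1418486_at had 6.77, 6.84 and 6.49 in AKR_F1 replicates 1 to 3, against 7.55, 7.30 and 7.45 in DBA_F1 replicates 1 to 3. The highest AKR_F1 array thus lay under the lowest DBA_F1 array, and AKR_F1 replicate 3 was the lowest of all. The means were 6.70 ± 0.18 in AKR_F1 and 7.44 ± 0.12 in DBA_F1 (SD, n = 3 each), a difference of -0.73 ± 0.11 (SE), or 1.66-fold lower in AKR_F1. The dimmer probe set 1447845_s_at had 4.86, 4.84 and 4.53 in AKR_F1 and 5.66, 5.35 and 5.45 in DBA_F1. It ordered the arrays almost as the brighter one did and gave nearly the same difference (-0.74 ± 0.13), although AKR_F1 replicate 3 stood under the filter level there. The call of the brighter probe set was lost in 5 of the 6 fits that left out an array. Without AKR_F1 replicates 1 or 2 the difference was -0.77 and -0.80, and without DBA_F1 replicates 1, 2 or 3 it was -0.68, -0.80 and -0.72. It passed without AKR_F1 replicate 3 (-0.63).

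Vnn3, the neighbouring vanin gene, had the largest difference among the members. Its probe set 1420723_at had 4.99, 5.24 and 5.497 in AKR_F1 replicates 1 to 3, against 6.19, 6.20 and 6.19 in DBA_F1 replicates 1 to 3. The DBA_F1 arrays were almost equal, while the AKR_F1 arrays were spread and all lower. The means were 5.24 ± 0.25 in AKR_F1 and 6.20 ± 0.0045 in DBA_F1 (SD, n = 3 each), a difference of -0.95 ± 0.13 (SE), or 1.94-fold lower in AKR_F1. The call was lost without AKR_F1 replicate 2 (-0.95) and without DBA_F1 replicate 2 (-0.95). With the mean of the squamous genes Krt4, Krt13 and Sprr3 as a covariate the Vnn3 difference was -0.71 and did not pass, while that of Vnn1 was -0.95 and passed. These genes were low in AKR_F1 replicates 1 and 2 only (Krt4 at 4.56 and 4.88, against 12.42 to 13.05 on the other arrays). The covariate fit thus rests mainly on AKR_F1 replicate 3 and is not a separate check from the fit of that array alone. In AKR_F1 replicate 3 alone against the DBA_F1 arrays, which share its squamous signal, the differences were -0.70 for Vnn3 and -0.94 for Vnn1, and neither passed in that fit with a single AKR_F1 array.

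The 250 bases before the annotated start of Vnn3 are printed because Vnn3 had the largest difference. They are RefSeq sequence of the GRCm38.p6 assembly, plus strand, chr10:23851212-23851461, read 5′ to 3′. Promoter entries were found for 6 of the 8 genes, in 9 windows, and not for Vnn1 and Coasy. Capitals mark the single match to TGACNNNGC, the core of the antioxidant response element, which lies on the strand opposite to the gene.
Vnn3: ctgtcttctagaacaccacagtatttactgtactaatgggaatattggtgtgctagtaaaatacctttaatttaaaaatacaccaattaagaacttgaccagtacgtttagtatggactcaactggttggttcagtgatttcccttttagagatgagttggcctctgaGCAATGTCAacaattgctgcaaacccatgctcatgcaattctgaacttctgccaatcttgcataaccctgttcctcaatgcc
The match begins 82 bases before the start. The same letters were found on either strand in 10.2% of 32851 promoter windows of this length, and in 2 of the 9 member windows, the other being a window of Pank2. The nuclear receptor half-site AGGTCA was not found in this window and was found in 14.0% of all windows. Of the 9 member windows 1 held it, that of Ppcs, on the strand of the gene. The matches did not overlap each other.

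Markers of other cells also differed between the groups. The 5 measured white adipocyte genes of 6 listed averaged 7.24 to 7.72 in AKR_F1 arrays and 8.44 to 9.11 in DBA_F1 arrays. Of the 5, 4 were called, all lower in AKR_F1, a direction in which 1.06% of all tested genes were called. Among them the hormone adiponectin (Adipoq) had 9.02, 8.16 and 8.40 in AKR_F1 replicates 1 to 3, against 10.44, 10.87 and 9.82 in DBA_F1 replicates 1 to 3. Lep, also called, was under the filter level on every AKR_F1 array (4.61, 4.57 and 4.31). It was tested only through its DBA_F1 values (5.09, 5.16 and 5.56), so its call is not separate from the filter. The 7 measured neutrophil genes of 8 listed averaged 7.68 to 8.15 in AKR_F1 and 7.71 to 9.25 in DBA_F1, overlapping between the groups, with 0 called and 2 at an unadjusted p under 0.05 in limma, a level that 19.1% of all tested genes reached. The 8 airway secretory genes averaged 10.83 to 11.46 in AKR_F1 and 11.42 to 12.09 in DBA_F1, with 1 called, the secretoglobin Scgb3a1, lower in AKR_F1. All 8 had lower means in AKR_F1, against 44.9% of all tested genes. An unadjusted p under 0.05 in limma was reached by 6 (19.1% of all tested genes), and the groups did not overlap in 5 (24.2%). The 7 measured alveolar macrophage genes of 8 listed averaged 8.47 to 8.79 in AKR_F1 and 8.65 to 9.13 in DBA_F1, overlapping between the groups. Of these 4 had higher and 3 had lower means in AKR_F1, and the groups did not overlap in 5 (24.2% of all tested genes). The lectin Siglecf was called higher in AKR_F1 (0.83 ± 0.12, limma adjusted p = 0.0182), against 1.42% of all tested genes. The fatty acid carrier Fabp4, which adipocytes share, was called lower, against 1.06%. The 4 tested thymocyte genes of 6 listed averaged 6.55, 6.005 and 7.65 in AKR_F1 replicates 1 to 3 and 5.79 to 5.92 in DBA_F1, with 0 called and 3 at an unadjusted p under 0.05 in limma. Vnn1 is abundant in liver, and of 6 hepatocyte genes listed the 2 tested (Apoa1 and Ttr) averaged 5.34 to 5.43 in AKR_F1 and 5.46 to 5.51 in DBA_F1, without overlap, and 0 were called or had an unadjusted p under 0.05 in limma. The apolipoprotein Apoa1 had 4.96, 4.90 and 4.85 in AKR_F1 and 4.98, 5.04 and 5.08 in DBA_F1. Albumin (Alb) lay between 4.09 and 4.15 in AKR_F1 and between 4.28 and 4.48 in DBA_F1, under the filter level on every array but lower in every AKR_F1 array. The other measured hepatocyte genes overlapped between the groups. Ttr had 5.74, 5.97 and 5.84 in AKR_F1 and 5.96, 5.89 and 5.94 in DBA_F1. Under the filter level, Apoa2 lay at 4.36 to 4.39 in AKR_F1 and 4.28 to 4.46 in DBA_F1, and Fga at 3.06 to 3.37 and 2.98 to 3.39. The part of all these cell types in the vanin differences was not tested.

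Pank1, the pantothenate kinase most abundant in liver and other oxidative tissues, was not called. Its brightest probe set 1418715_at had 7.20, 7.22 and 6.95 in AKR_F1 replicates 1 to 3, against 7.75, 7.996 and 7.19 in DBA_F1 replicates 1 to 3. DBA_F1 replicates 1 and 2 were high, but DBA_F1 replicate 3 lay within the AKR_F1 range, so the groups overlapped. The difference was -0.53 ± 0.20 (SE). Probe set 1431028_a_at had 6.97, 7.02 and 6.87 in AKR_F1 and 7.49, 7.64 and 6.89 in DBA_F1, the same order of arrays, and a difference of -0.39 ± 0.18. The other 2 probe sets of the gene, at means of 4.08 to 4.31 in either group, were under the filter level and were not tested. Without DBA_F1 replicate 3 the differences of the upper pair were -0.75 and -0.61, and both then passed.

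The mean of the brown adipocyte genes had the same highest and the same lowest array as Pank1. The 6 brown adipocyte genes averaged 7.11, 6.26 and 5.96 in AKR_F1 replicates 1 to 3, against 8.48, 9.16 and 7.24 in DBA_F1 replicates 1 to 3. In the middle the order differed. From DBA_F1 replicate 3 to AKR_F1 replicates 1 and 2 this mean fell, while Pank1 rose slightly (7.19, 7.20 and 7.22). The white adipocyte mean was also highest in DBA_F1 replicate 2 (9.11). The uncoupling protein Ucp1, which defines brown fat, had 7.88, 5.18 and 3.82 in AKR_F1 and 10.11, 11.25 and 8.29 in DBA_F1. DBA_F1 replicate 2 was thus the highest and AKR_F1 replicate 3 the lowest for Ucp1 and for Pank1 alike, and 0 of the 6 genes were called (5 had an unadjusted p under 0.05 in limma, against 19.1% of all tested genes). For Cox8b (8.56) and Cox7a1 (7.86) the lowest array was AKR_F1 replicate 2. Dio2 had a slightly higher mean in AKR_F1 (0.068 ± 0.17 SE), and its lowest array was DBA_F1 replicate 3 (4.61). Elovl3 had a mean of 4.47 in AKR_F1, under the filter level, and was tested through its DBA_F1 values (mean 5.87). The part of brown fat or muscle RNA in the Pank1 difference was not tested.

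**Figure D2:**
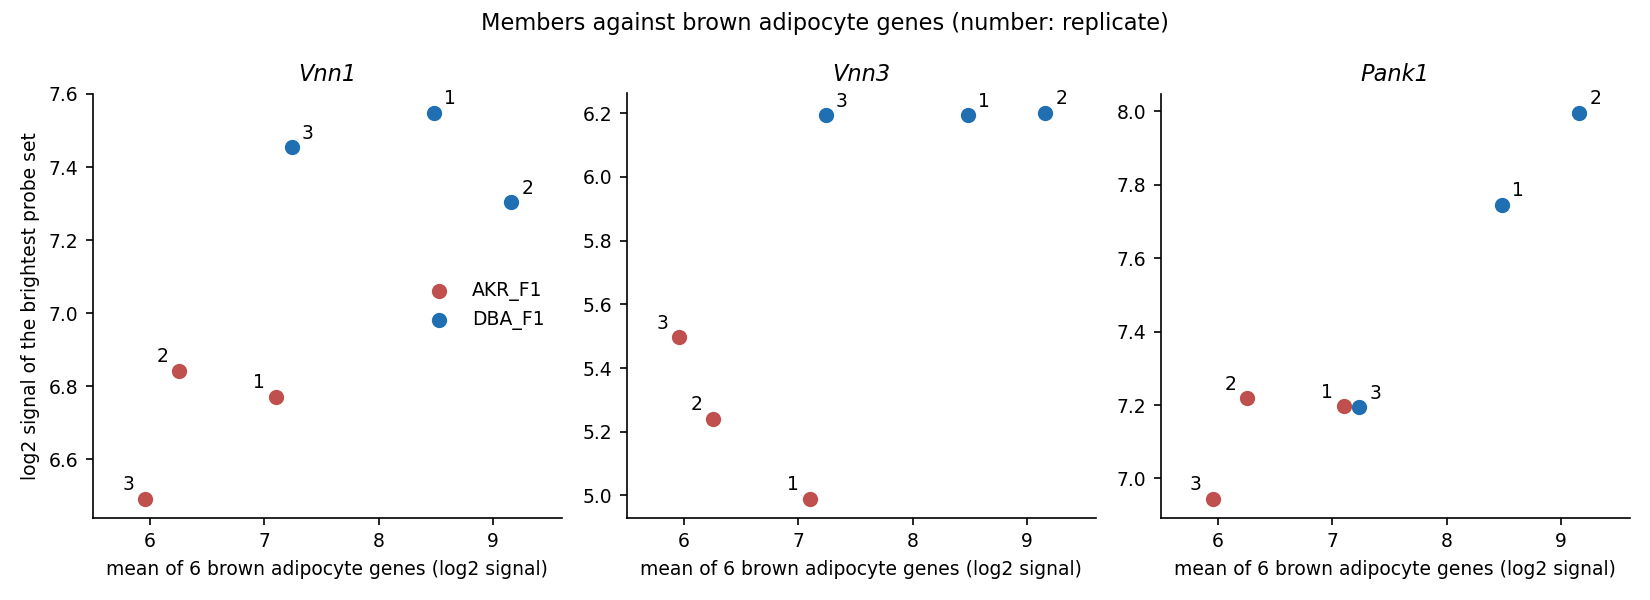
Log2 signal of the brightest probe set of Vnn1, Vnn3 and Pank1 (vertical axes) against the mean log2 signal of 6 brown adipocyte genes (horizontal axes), 1 point per array with its replicate number, AKR_F1 in red and DBA_F1 in blue. DBA_F1 replicate 3, at a brown adipocyte mean of 7.24, lies beside AKR_F1 replicate 1 for Pank1 (7.19 and 7.20).

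The promoter entries hold windows for 2 annotated starts of Pank1. The gene itself extends to chr19:34883423 in RefSeq, upstream of both starts, and no window was found for that end. The 250 bases before each of the 2 starts are printed since the upper probe sets of Pank1 moved together over the arrays. Both are GRCm38.p6, minus strand, read 5′ to 3′: start a is preceded by chr19:34879456-34879705 and start b by chr19:34877918-34878167. Capitals mark TATAAA on either strand, the core of the TATA box.
Pank1 start a: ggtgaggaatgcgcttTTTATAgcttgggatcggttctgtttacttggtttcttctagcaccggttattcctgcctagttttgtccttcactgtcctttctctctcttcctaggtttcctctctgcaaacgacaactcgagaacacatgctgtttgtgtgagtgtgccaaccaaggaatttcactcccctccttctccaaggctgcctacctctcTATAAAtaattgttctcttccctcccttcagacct
Pank1 start b: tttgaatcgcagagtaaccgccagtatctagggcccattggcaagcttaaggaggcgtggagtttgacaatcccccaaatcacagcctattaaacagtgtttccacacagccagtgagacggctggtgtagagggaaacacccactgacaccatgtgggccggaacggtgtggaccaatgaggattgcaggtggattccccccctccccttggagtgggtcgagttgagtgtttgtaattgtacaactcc
Before start a the letters were found on the strand of the gene, 35 bases before the start, and on the opposite strand farther away, at 234 bases. Start b had no match, and start a was the only one of the 9 member windows with one. TATAAA was found on either strand in 12.4% of the 32851 windows, and AGGTCA was not found before either start. Which of the starts the probe sets report was not analysed here.

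Pank2, the kinase that is targeted to mitochondria in humans, had 2 of 3 probe sets with higher values in every AKR_F1 array. Probe set 1452733_at had 7.54, 7.61 and 7.40 in AKR_F1 replicates 1 to 3, against 7.27, 7.18 and 7.20 in DBA_F1 replicates 1 to 3. The groups did not overlap, and the difference was 0.30 ± 0.072 (SE). Probe set 1431948_a_at had 8.02, 8.23 and 8.17 in AKR_F1 and 7.92, 7.99 and 7.90 in DBA_F1, a difference of 0.20 ± 0.069. The third probe set, 1458358_at, had 6.94, 6.86 and 6.66 in AKR_F1 and 7.06, 6.89 and 6.58 in DBA_F1, with overlapping groups and a difference of -0.026 ± 0.14. None was called, but 1452733_at passed without AKR_F1 replicate 3 (0.36) and with array weights (0.33). Its difference was 0.18 with the squamous covariate, where it did not pass, and 0.18 for AKR_F1 replicate 3 alone against DBA_F1. Both fits rest mainly on that AKR_F1 array.

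Pank3, the cytosolic kinase, gave opposite signs by its probe sets. The bright probe set 1433613_at had 9.48, 9.46 and 9.32 in AKR_F1 replicates 1 to 3, against 9.53, 9.59 and 9.40 in DBA_F1 replicates 1 to 3 (-0.087 ± 0.069 SE). The dim probe set 1426259_at had 5.61, 5.37 and 5.30 in AKR_F1 and 5.24, 5.39 and 4.89 in DBA_F1 (0.25 ± 0.15). The groups overlapped in both, and neither was called.

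The later steps of the chain showed small differences. Ppcs, which joins cysteine to phosphopantothenate, had 6.54, 6.70 and 6.41 in AKR_F1 replicates 1 to 3, against 6.67, 6.64 and 6.36 in DBA_F1 replicates 1 to 3. The arrays intermingled, and the difference was -0.0094 ± 0.11 (SE). Ppcdc, the decarboxylase, had 7.44, 7.44 and 7.56 in AKR_F1 and 7.42, 7.42 and 7.47 in DBA_F1 by its bright probe set 1424335_at (0.046 ± 0.061). Probe set 1424336_at of Ppcdc differed by -0.046 ± 0.076, and its remaining probe set, at means of 4.53 in either group, was not tested. Coasy, whose product ends the pathway, had 7.06, 7.25 and 7.22 in AKR_F1 and 7.27, 7.43 and 7.26 in DBA_F1 by probe set 1423701_at. Every AKR_F1 array lay below every DBA_F1 array, but by a margin of under the spread within groups, and the difference was -0.15 ± 0.080. Its dimmer probe set 1443829_x_at differed by -0.090 ± 0.082 with overlapping groups. At the brightest probe sets of these 3 genes the difference was smaller than 2 SE, so none was larger than the error of 3 arrays a group allows.

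**Figure D3:**
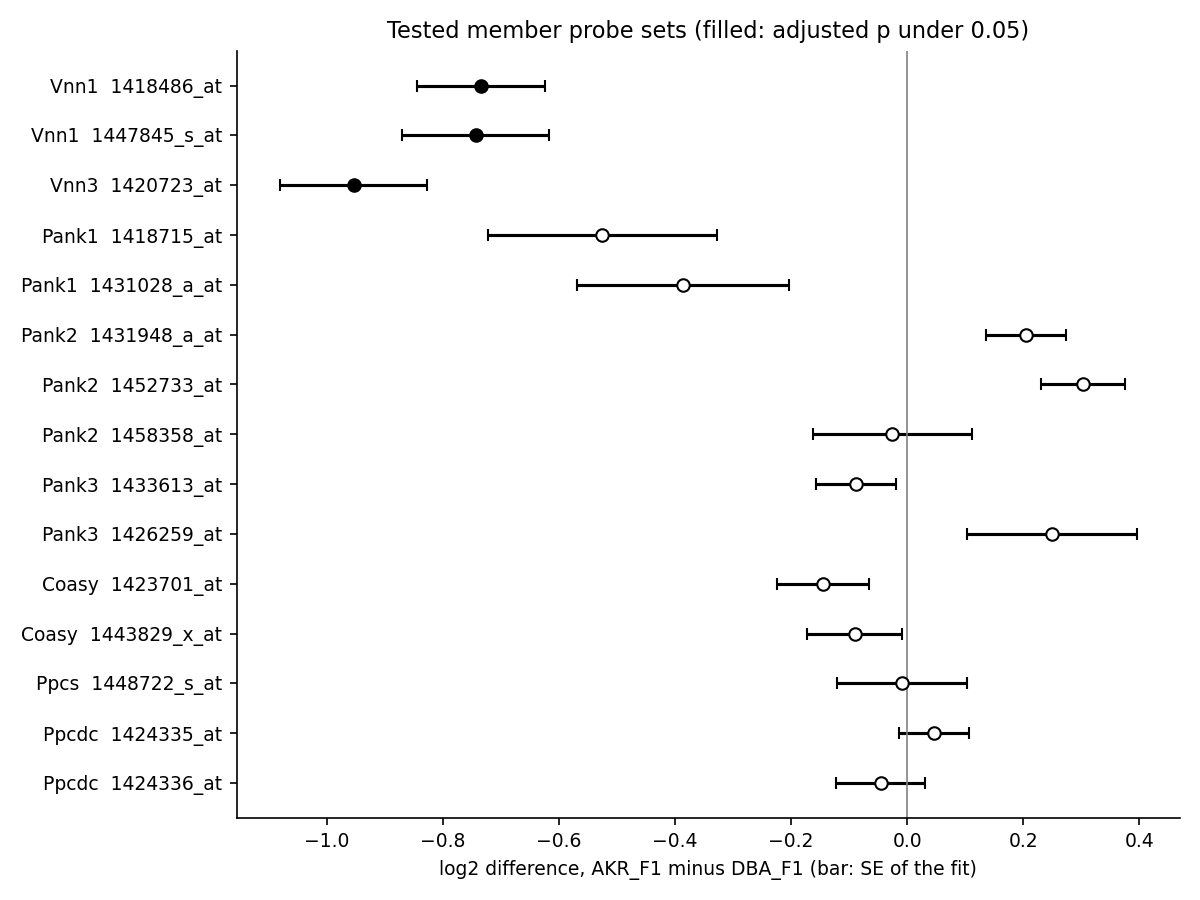
Log2 difference, AKR_F1 minus DBA_F1 (horizontal axis), of the 15 tested member probe sets, with the SE of the limma fit as bars and filled points for those past an adjusted p of 0.05. The 3 vanin probe sets lie at -0.95 to -0.73, and the synthesis probe sets between -0.53 and 0.30.

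Genes around the pathway were counted in 5 lists, with 64 genes of which 55 were tested, each by its brightest probe set. Of these 2 were called, both lower in AKR_F1, against 2.48% of all 13202 tested genes (1.06% lower and 1.42% higher in AKR_F1). Both belonged to the list of PPAR alpha and fatty acid oxidation, in which 15 of 18 genes were tested and 14 of the 15 had lower means in AKR_F1, against 44.9% of all tested genes. The median difference of that list was -0.59, beside 0.015 over all tested genes. The lists were chosen with earlier results of these data known, so these counts are descriptions. The receptor Ppara itself had 6.21, 6.005 and 6.29 in AKR_F1 replicates 1 to 3, against 7.56, 7.60 and 7.03 in DBA_F1 replicates 1 to 3, with no overlap. It fell by 1.23 ± 0.16 on the log2 scale (SE, limma adjusted p = 0.014). Its other tested probe sets differed by -0.90 ± 0.20 (adjusted p = 0.0726) and -0.29 ± 0.12 (adjusted p = 0.249). The mitochondrial thiolase Acaa2, which releases acetyl-CoA in the last step of beta-oxidation, had 9.57, 9.38 and 9.46 in AKR_F1 and 10.33, 10.67 and 10.05 in DBA_F1, again with no overlap. It fell by 0.88 ± 0.15 (limma adjusted p = 0.0302), and its other 2 probe sets were called too (-0.73 and -0.85).

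The other named genes of that list did not pass. The pyruvate dehydrogenase kinase Pdk4 differed by -1.68 ± 0.33 (limma adjusted p = 0.0501) and the lipase inhibitor Angptl4 by -1.53 ± 0.50 (adjusted p = 0.18). Angptl4 had 7.06, 6.86 and 7.17 in the AKR_F1 arrays, against 7.24, 9.20 and 9.24 in the DBA_F1 arrays, where replicate 1 lay just above AKR_F1. Acadvl, the very long-chain acyl-CoA dehydrogenase, differed by -0.71 and the trifunctional protein subunit Hadhb by -0.70. The counts over the 5 lists moved with single arrays: 11 genes were called without DBA_F1 replicate 3, and 3 without DBA_F1 replicate 1 or AKR_F1 replicate 3. None were called without AKR_F1 replicate 1 or 2. Ppara lost its call without AKR_F1 replicate 1 (-1.25, adjusted p = 0.0635) or 2 (-1.14, adjusted p = 0.0716) and without DBA_F1 replicate 2 (-1.13, adjusted p = 0.061). Acaa2 lost it without AKR_F1 replicate 1 (-0.93, adjusted p = 0.097) or 2 (-0.84, adjusted p = 0.132) and without DBA_F1 replicate 1 (-0.89, adjusted p = 0.0692). The means of the white and of the brown adipocyte genes given above were lower in AKR_F1 arrays in the same samples. The part of fat or muscle RNA in these differences was not tested.

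In the other 4 lists no gene was called by limma, and their counts at an unadjusted p under 0.05 stand beside 19.1% of all tested genes. Among 11 further coenzyme A genes, 5 had an unadjusted p under 0.05, and the median difference was -0.12. Nudt19, a peroxisomal coenzyme A hydrolase, had 7.59, 7.44 and 7.58 in AKR_F1 replicates 1 to 3, against 7.26, 7.12 and 7.10 in DBA_F1 replicates 1 to 3. It differed by 0.37 ± 0.074 (limma adjusted p = 0.0525), just outside the threshold, with every AKR_F1 array above every DBA_F1 array, and its other probe set by 0.26 (adjusted p = 0.250). Nudt19 passed with median centring, the 60% filter, robust eBayes and array weights, and its limma adjusted p ran from 0.0341 to 0.320 over all alternatives. The mitochondrial coenzyme A carrier Slc25a42 differed by -0.53 ± 0.17 (adjusted p = 0.172), with 8.01 in DBA_F1 replicate 2 far above the other arrays. Slc5a6, which imports pantothenate into cells, had 5.08, 5.02 and 5.08 in AKR_F1 and 5.60, 5.43 and 5.21 in DBA_F1 (-0.35 ± 0.11, adjusted p = 0.162). The mitochondrial acyl carrier protein Ndufab1, which carries a phosphopantetheine arm made from coenzyme A, differed by -0.34 ± 0.10 (adjusted p = 0.139).

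Genes that handle cysteamine and taurine showed no call among 5 tested of 7 listed, with 2 at an unadjusted p under 0.05 and a median difference of -0.095. Cysteine dioxygenase (Cdo1) differed by -0.32 ± 0.10 (limma adjusted p = 0.166) and the taurine transporter Slc6a6 by 0.28 ± 0.096 (adjusted p = 0.194). Csad and Fmo1, enzymes on the way to taurine, differed by -0.12 and -0.095. For glutathione, 0 of 8 tested genes of 10 listed were called in limma and 3 had an unadjusted p under 0.05, with a median of -0.0026. The secreted peroxidase Gpx3 had 12.88, 12.96 and 12.69 in AKR_F1 replicates 1 to 3, against 12.52, 12.62 and 12.56 in DBA_F1 replicates 1 to 3 (0.28 ± 0.071, adjusted p = 0.108). It passed without AKR_F1 replicate 3 (0.35, adjusted p = 0.015). Gclc and Gclm, the subunits of the enzyme that begins glutathione synthesis, differed by 0.17 and 0.12, and Gpx4 by -0.12. In the list of acyl-CoA synthetases, transporters and thioesterases, 0 of 16 tested genes of 18 were called in limma, 5 had an unadjusted p under 0.05 and the median was -0.086. The largest differences were those of the very long-chain acyl-CoA synthetase Slc27a2 (-0.81 ± 0.29, adjusted p = 0.206), the thioesterases Acot11 (-0.50) and Acot1 (-0.43) and the fatty acid transporter Slc27a1 (-0.44).

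**Figure D4:**
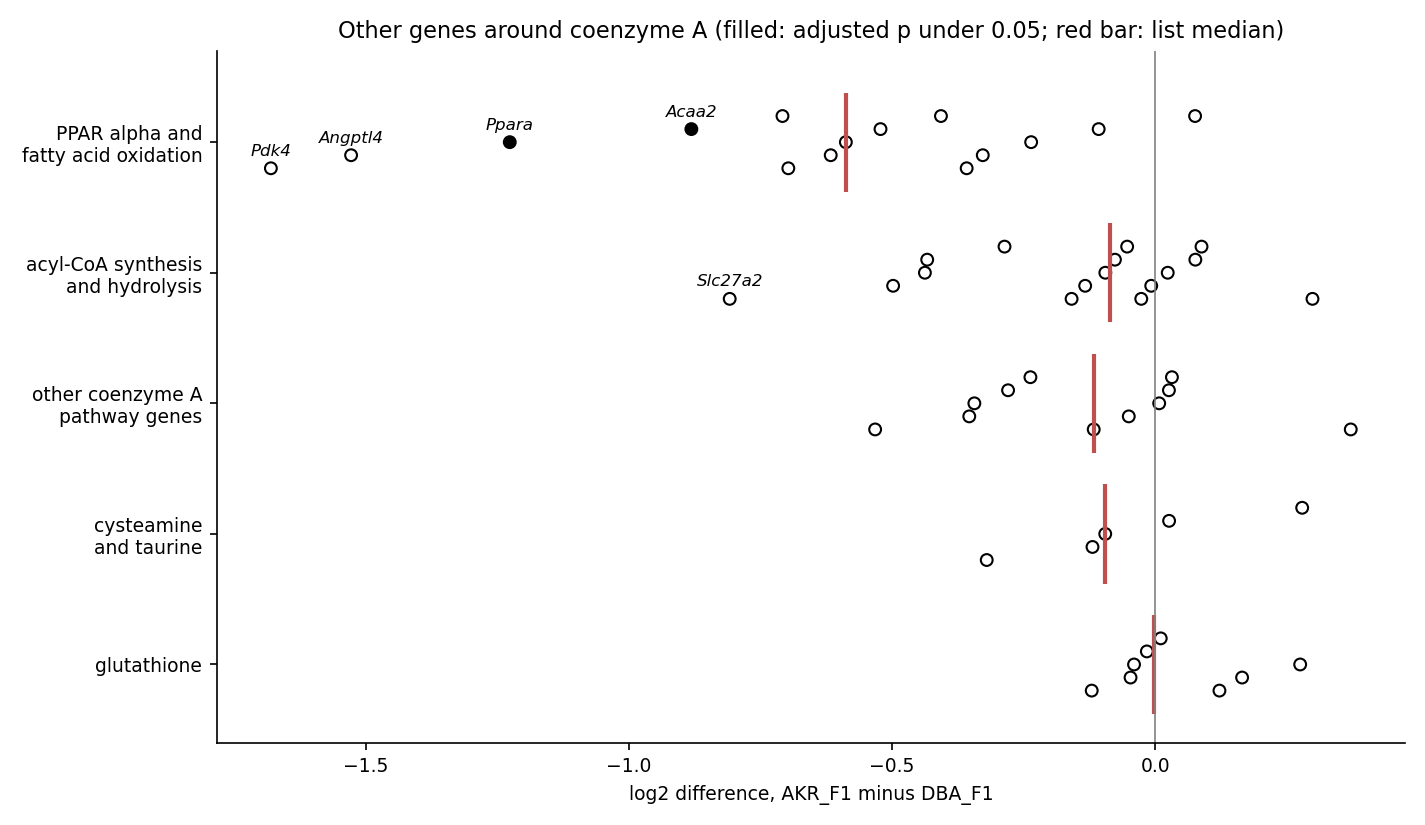
Log2 difference, AKR_F1 minus DBA_F1 (horizontal axis), of the 55 tested genes in 5 lists (rows), 1 point per gene by its brightest probe set, filled where the adjusted p was under 0.05. Red bars are list medians, and the PPAR alpha and fatty acid oxidation list has its median at -0.59 with Ppara and Acaa2 filled.

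Vnn3 and Vnn1 lie side by side on chromosome 10, with no other gene between them in the RefSeq gene table of GRCm38.p6, which was used for gene order. Of the 6 nearest tested genes on each side, 0 of 12 were called in limma, against 2.48% of all tested genes, and 2 had an unadjusted p under 0.05, against 19.1%. The groups did not overlap in 4 of the 12, against 24.2% of all tested genes, and 4 had lower means in AKR_F1, against 44.9%. On the Vnn3 side the nearest was the vesicular transporter Slc18b1, with 7.02, 7.06 and 7.03 in AKR_F1 replicates 1 to 3, against 7.09, 7.02 and 7.10 in DBA_F1 replicates 1 to 3 (-0.033 ± 0.057 SE, limma adjusted p = 0.805). Beyond it Tcf21, Tbpl1, Slc2a12, Sgk1 and Aldh8a1 differed by 0.0045, 0.15, 0.19, 0.22 and 0.010. On the Vnn1 side the nearest was the endosomal syntaxin Stx7, which had 10.39, 10.31 and 10.33 in AKR_F1 and 10.25, 10.07 and 10.27 in DBA_F1 (0.15 ± 0.064, adjusted p = 0.276). Beyond it Ccn2, Enpp3, Med23, Arg1 and Akap7 differed by 0.28, -0.23, 0.012, -0.64 and -0.066. Arginase (Arg1), with the widest spread, had 4.65, 4.57 and 6.08 in AKR_F1 and 5.54, 6.29 and 5.40 in DBA_F1 (adjusted p = 0.475).

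**Figure D5:**
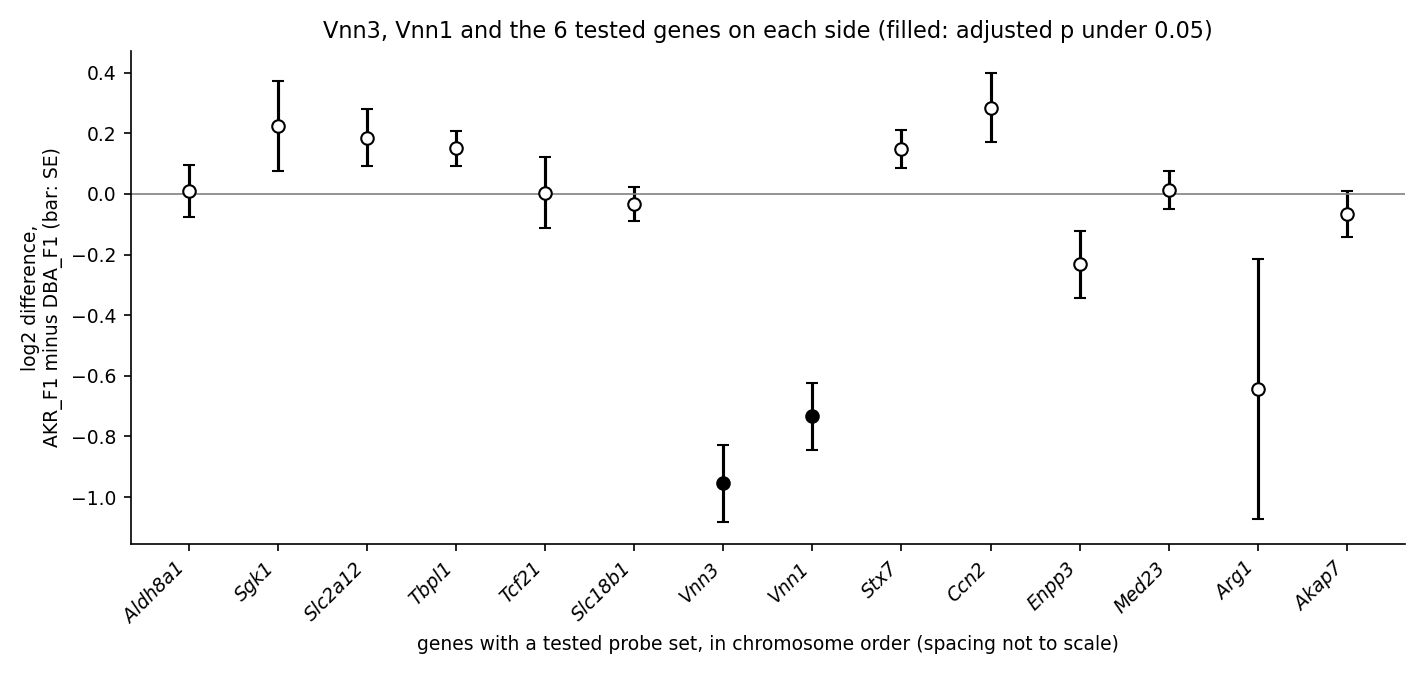
Log2 difference, AKR_F1 minus DBA_F1 (vertical axis, bars are SE of the limma fit), of Vnn3, Vnn1 and the 6 nearest tested genes on each side, in chromosome order with spacing not to scale. Vnn3 (-0.95) and Vnn1 (-0.73) are filled, since they passed an adjusted p of 0.05, and the 12 neighbours are open.

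The genes whose values over the 6 arrays were most like those of a member were found by Pearson's r among 610 genes with a range of at least 1 between arrays. All 6 arrays share the group contrast and any RNA of other tissues, so r is a description. For Vnn1 they were Ppp1r16b (0.988), Cd177 (0.983), Pam (0.969), Ces1f (0.962) and Hspa13 (0.959). Ppp1r16b had 8.41, 8.45 and 8.07 in AKR_F1 replicates 1 to 3, against 9.06, 8.76 and 9.07 in DBA_F1 replicates 1 to 3, with the dip in AKR_F1 replicate 3 and DBA_F1 replicate 2 that Vnn1 also had. For Vnn3 they were E330020D12Rik (0.990), the MHC class II beta chain H2-Eb1 (0.982), H60c (0.977), H2-Ea (0.975) and Bcat2 (0.963). For Pank1 they were Slc36a2 (0.993), Agpat2 (0.993), A2ml1 (0.983), Nrg4 (0.983) and Prkar2b (0.979). Slc36a2 had 8.17, 8.14 and 7.89 in AKR_F1 and 8.76, 8.95 and 8.25 in DBA_F1. No gene stood in more than 1 of these 3 lists.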

How the data were processed

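The deposited values are log2 signals for each probe set. MAS5 and RMA are named in the submitters' processing notes, without a role, so the log2 scale was read from the values. They were used without further normalization. Control probe sets (64) were left out, and gene names were taken from the platform annotation (34945 probe sets with a single symbol, 932 with several, 9160 with none). Groups were compared with limma 3.58.1 in R 4.3.3 (lmFit, eBayes with a trend, two-sided, 4 residual and 3.06 prior degrees of freedom), adjusted by Benjamini-Hochberg over all 27022 tested probe sets. Differences are AKR_F1 minus DBA_F1. The fit was tested on simulated data. Members, gene lists, marker lists and tests were chosen with earlier results of these data known. Genes named are all members, in each pathway list the called genes and up to 4 others with the largest absolute differences, the nearest tested neighbours of the vanins, and the 5 genes most like Vnn1, Vnn3 and Pank1. Other markers were chosen after their values were seen. Alternatives covered normalization, centring, the filter, eBayes, array weights, a replicate block, left-out arrays, a squamous covariate and the mean of a gene's probe sets.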

Additional observations from a re-analysis of the deposited data

How the results depend on the processing

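The signs of the Vnn1 and Vnn3 differences were kept in all 17 and 16 alternatives that gave a value, with a call in 11 and 12. With an array left out, Vnn1 ran from -0.80 to -0.63 and Vnn3 from -1.08 to -0.83, and the call counts from 0 to 4 member probe sets, 198 to 1171 probe sets in all, 0 to 11 pathway genes and 0 to 0 neighbours. For AKR_F1 replicate 3 alone against DBA_F1, Vnn1 (-0.94) and Vnn3 (-0.70) lost their calls, and 0 member probe sets, 0 pathway genes and 85 probe sets in all were called, with fewer samples. The fit with the squamous covariate also rests mainly on AKR_F1 replicate 3. In it Vnn3 (-0.71) lost its call, 0 pathway genes and 253 probe sets in all were called, and the cause was not tested. Leaving out the lowest 60% gave 1 member call, since Vnn3 and the dimmer Vnn1 probe set were then not tested. Pathway calls were 4 with median centring and 4 with array weights, which called 1198 probe sets. Some uncalled differences changed sign, that of Arg1 from -0.64. These were Pank3 with the mean of its probe sets (0.081), Med23 with quantile normalization (-0.0063), Aldh8a1 with array weights (-0.013), and, for AKR_F1 replicate 3 alone and the squamous covariate in turn, Aldh8a1 (-0.014 and -0.0064), Tcf21 (-0.28 and -0.28), Med23 (-0.068 and -0.071) and Arg1 (0.33 and 0.35). With an array left out, Ppcs ran from -0.11 to 0.059, Aldh8a1 from -0.050 to 0.058, Tcf21 from -0.091 to 0.15, Med23 from -0.021 to 0.052 and Akap7 from -0.12 to 0.0051. Replicate numbers are shared by the groups and were not treated as pairs in the main fit. The deviations of same-numbered arrays correlated at 0.31, -0.23 and -0.050, and 2 of 6 arrays correlated best with their own number. With 3 arrays a group, these values cannot exclude a pairing. With a replicate block the call counts were 3 member probe sets, 2 pathway genes, 0 neighbours and 539 probe sets in all, and no call changed among the members, named pathway genes and neighbours. Signals near or below 4.72 have no stated limit of background, so differences of dim probe sets are not exact in size.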
